A study of Rattus norvegicus with 9 samples.

Results

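The genes described here encode the proteins of both ribosomes of the cell, the cytosolic ribosome and the mitochondrial ribosome. They were taken by symbol from the protein coding entries of the count table (Rpl or Rps followed by a number, Rplp, Rpsa, Mrpl and Mrps, without the Rps6k kinases), with at least 10 counts in total over the 9 libraries. The rule used no measured difference between groups. It found 173 entries by symbol and 162 members of 32883 entries in the table. Of these members 85 were cytosolic, with 52 in the large and 33 in the small subunit. The mitochondrial members were 77, with 48 in the large and 29 in the small subunit. Class and subunit were read from the symbol alone, so Mrps18a, for example, is counted by its name in the small subunit.

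RNA was sequenced from the vestibular epithelium of male Long-Evans rats, 3 in each of 3 groups, whose age the labels do not give. IDPN-3wk and IDPN-7wk rats drank water with 20 mM 3,3′-iminodipropionitrile (IDPN), a nitrile that damages the vestibular sensory epithelium, for 3 or 7 weeks. Control rats had plain water, served both comparisons and came from both time points as a single group, so the time an individual control was taken cannot be told from the labels. The 2 utricles and 6 cristae of each rat were pooled into 1 library, so each replicate was 1 animal and each library a mixture of hair cells, supporting cells, stroma, nerve endings and blood cells.

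The cytosolic ribosome makes all proteins encoded in the nucleus, and its protein genes are known as a group whose mRNAs are transcribed together and translated together. Many of their transcripts begin with a C followed by a run of pyrimidines, the 5′ terminal oligopyrimidine (TOP) tract, through which the mTOR kinase controls their translation. The mitochondrial ribosome is built from nuclear encoded Mrp proteins and mitochondrial rRNA, and translates the 13 protein coding genes of the mitochondrial genome, all of them subunits of the respiratory chain or ATP synthase. Hair cells depend on mitochondria for the transport work behind transduction, and some ototoxic antibiotics bind ribosomes of the bacterial type to which the mitochondrial ribosome is related.

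The start sites show how differently the 2 classes begin. The sequences, from RefSeq (build GRCr8), run from 10 bases before the annotated start to the 20th base from it, and 60 of 79 cytosolic and 62 of 77 mitochondrial symbols had one. The first 4 are the cytosolic members outside chromosome 18 with the smallest p at 3 weeks among those with a C at the start followed by at least 4 pyrimidines. Capitals mark the pyrimidine run that crosses the start.
Rps15, chr7:10068096-10068125, minus strand: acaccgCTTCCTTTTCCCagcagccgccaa
Rplp0, chr12:46718371-46718400, minus strand: caccgcaCTTCTCTCgccaggcgtcctcat
Rpl19, chr10:83519054-83519083, plus strand: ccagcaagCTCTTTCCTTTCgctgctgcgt
Rpl14, chr8:129163610-129163639, plus strand: ggCCCTCTCCCTTCTCgctgagcgccgcca

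A C at the start followed by at least 4 C or T was found in 20 of the 60 cytosolic promoters (33.3%), in 2 of the 62 mitochondrial promoters (3.23%, Mrpl4 and Mrps5) and in 2.63% of all 27457 promoters. A looser form, a run of at least 7 C or T that begins within 10 bases of the start, was in 61.7% of cytosolic, 16.1% of mitochondrial and 15.2% of all promoters. Other words were searched on either strand of the 300 bases around the start, without a test of the difference between classes. AAGATGGC, the core of the site of YY1, was in 24.2% of mitochondrial, 8.33% of cytosolic and 3.44% of all promoters. CCGGAAG, the core bound by ETS family factors, was in 32.3%, 28.3% and 9.22%. The following 5 windows show these words in capitals for mitochondrial members with a small p, AAGATGGC in the first 3 and CCGGAAG (or its reverse complement CTTCCGG) in the last 2.
Mrps6, chr11:44778657-44778686, plus strand: ttccatcAAGATGGCagccaagaccctggg
Mrps7, chr10:101342632-101342661, plus strand: ggtcctgatagcggccAAGATGGCtgcccc
Mrpl37, chr5:127074948-127074977, minus strand: aggccctgcccgggcaAAGATGGCggcgtc
Mrps18b, chr20:2842996-2843025, plus strand: agtcgttCTTCCGGcaggccgtacgttgga
Mrpl3, chr8:114548960-114548989, plus strand: ggaccacattgagaaacggaCCGGAAGtgg

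GGGCGG, the box bound by Sp1, was in 55.0% of cytosolic, 48.4% of mitochondrial and 34.9% of all promoters, and GCATGCGC, the site of NRF1, in 5.0%, 8.06% and 2.66%. The housekeeping palindrome bound by ZBTB33 was in 10.0%, 1.61% and 0.433%. A match describes letters in an annotated window and says nothing of binding in this tissue.

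Library totals ran from 31100118 to 46018385 counts. After thinning to equal depth, 3 libraries (control replicate 3 and IDPN-3wk replicates 1 and 2) showed 15387 to 15498 genes with a count and the other 6 showed 16834 to 17312. This set crosses the groups unevenly, and several class values are also given for the other 6 libraries alone. The titles of IDPN-3wk replicate 1 and IDPN-7wk replicate 1 share a code that the labels do not explain, while every other code stays within a group. These 2 libraries had the highest cytosolic share of their groups, and the part of the shared code was not tested. Hair cell markers summed to 3461 to 3994 CPM (counts per 1000000, with library sizes scaled by the TMM method of edgeR) in controls, 2081 to 2613 in IDPN-3wk and 1817 to 2109 in IDPN-7wk libraries. Supporting cell markers went from 16825 to 17438 CPM in controls to 10840 to 13526 and 7362 to 10262 CPM. A large part of these sums was 1 gene, Otog, with means of 8473, 4674 and 3533 CPM in control, IDPN-3wk and IDPN-7wk. In bulk RNA, fewer cells of a type and less RNA per cell cannot be told apart.

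The cytosolic ribosomal protein genes took a larger share of all counts in every exposed library than in any control. The share was 1.35%, 1.35% and 1.32% in controls. It was 1.65%, 1.56% and 1.48% in IDPN-3wk libraries and 1.70%, 1.46% and 1.51% in IDPN-7wk libraries, means of 1.34% ± 0.0176, 1.56% ± 0.0872 and 1.56% ± 0.125 (SD, n = 3). The ranges of exposed and control rats did not overlap, and those of both exposed groups overlapped each other. These shares are relative to total counts, and the scaling mattered at 7 weeks.

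The TMM factors were 1.06 to 1.07 in IDPN-7wk libraries and 0.934 to 0.995 in the other 6. On the TMM scale the summed cytosolic level was 13868, 13591 and 14119 CPM in controls and 16942, 16285 and 14853 CPM in IDPN-3wk, which still did not overlap. In IDPN-7wk it was 15921, 13848 and 14249 CPM and overlapped with controls. The ratio of means to control was 1.17 by share and 1.16 by TMM-scaled level at 3 weeks, and 1.16 and 1.06 at 7 weeks.

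The mitochondrial class differed less between the groups. Its share was 0.235%, 0.237% and 0.229% in controls, 0.253%, 0.236% and 0.261% in IDPN-3wk and 0.264%, 0.251% and 0.257% in IDPN-7wk. On the TMM scale the sums were 2415, 2391 and 2450 CPM in controls, 2591, 2467 and 2625 CPM in IDPN-3wk, and 2472, 2375 and 2424 CPM in IDPN-7wk. By share it was the IDPN-7wk group that did not overlap with controls, and on the TMM scale the IDPN-3wk group. The ratio of means at 7 weeks was 1.10 by share and 1.00 by TMM-scaled level.

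**Figure D1:**
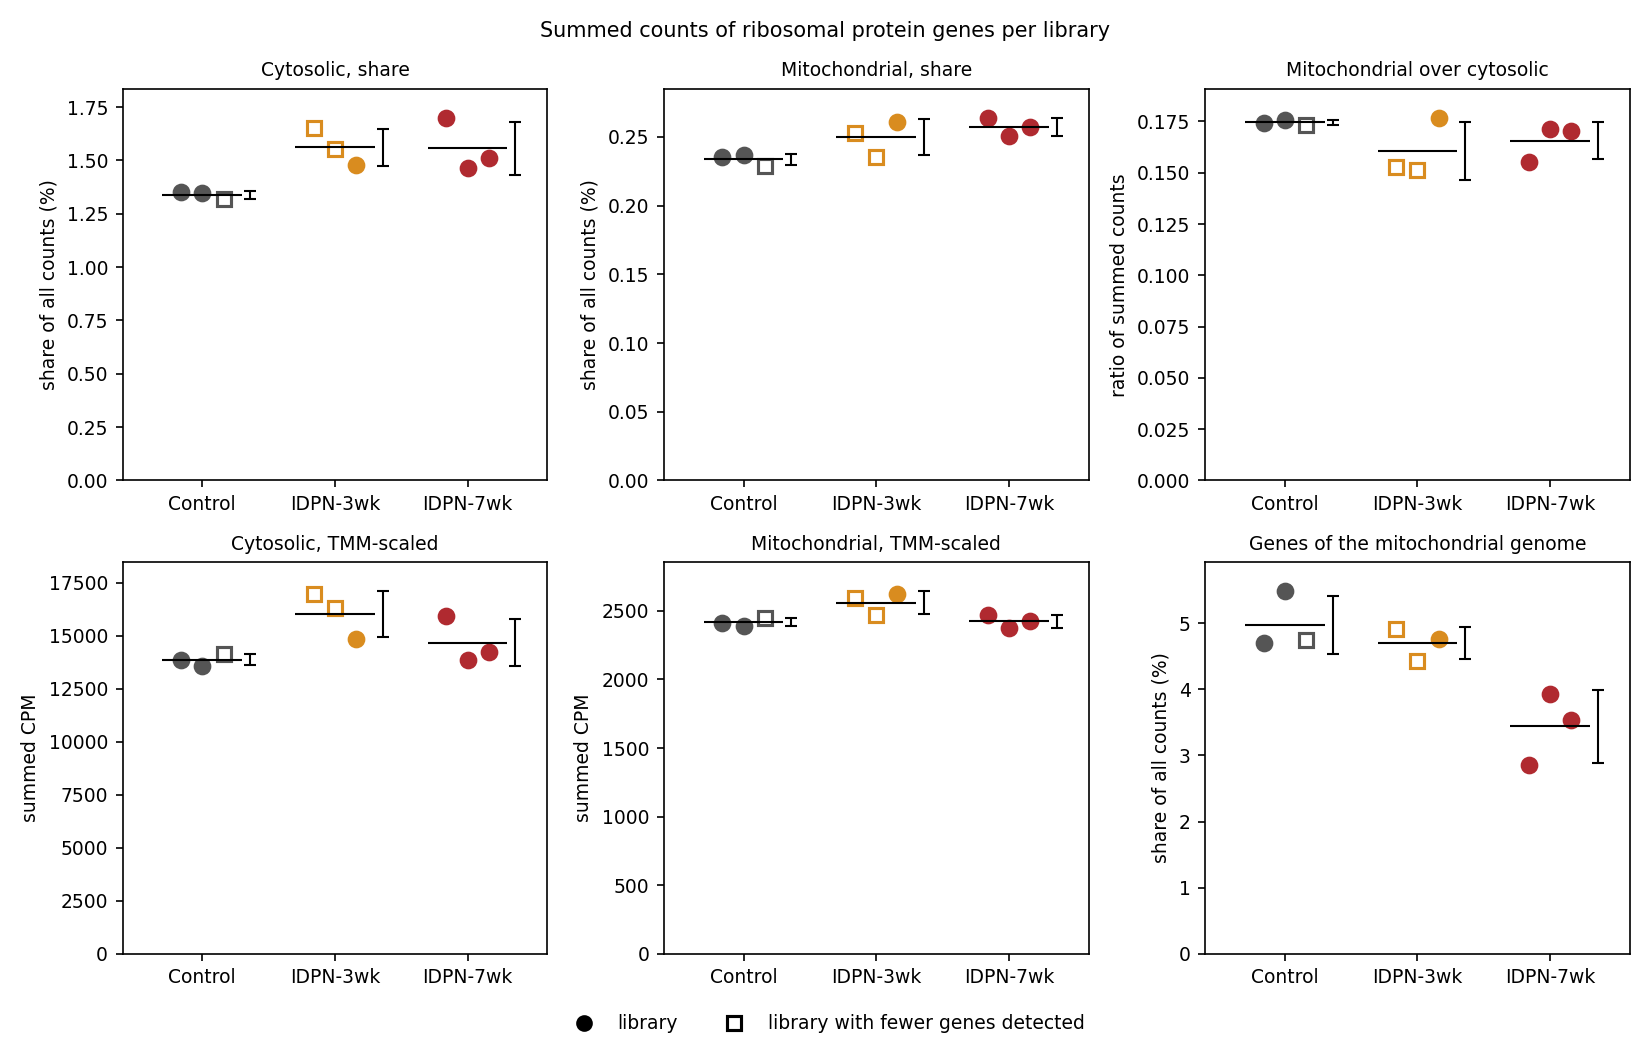
Each point is 1 library (1 rat), grouped along the x axis as control, IDPN-3wk and IDPN-7wk, with the group mean as a line and the SD as a bar beside it. The y axes start at 0 and show percent of all counts, a ratio of counts, or summed CPM. Open squares are the 3 libraries with fewer genes detected. Cytosolic shares of exposed rats (1.46% to 1.70%) sit above the controls (1.32% to 1.35%), and after TMM scaling the IDPN-7wk libraries overlap with controls.

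The count ratio of mitochondrial to cytosolic ribosomal protein genes needs no library scaling. It was 0.174, 0.176 and 0.174 in controls, 0.153, 0.152 and 0.177 in IDPN-3wk and 0.155, 0.172 and 0.170 in IDPN-7wk. The 7-week libraries were all below the 3 controls, while the third IDPN-3wk library was above them. Both low IDPN-3wk values came from libraries with fewer genes detected. The ratio of IDPN-3wk over control was 0.919 over all libraries. It was 0.877 within the libraries with fewer genes detected (2 IDPN-3wk, 1 control) and 1.01 among the other 6 (1 IDPN-3wk, 2 controls). The ratio of IDPN-7wk over IDPN-3wk was 1.03 over all and 0.937 among those 6. The part of that library set in the 3-week ratio was not tested.

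Genes of the mitochondrial genome, whose mRNAs the mitochondrial ribosome reads, took 4.71%, 5.48% and 4.74% of counts in controls. They took 4.91%, 4.43% and 4.76% in IDPN-3wk and 2.85%, 3.93% and 3.54% in IDPN-7wk libraries, all 3 of the latter below every other library. Of the 13 protein coding genes, 10 were downregulated at 7 weeks (adjusted p under 0.05, edgeR quasi-likelihood test, Benjamini-Hochberg adjustment; background 3.61% of all genes lower), and their median on the log2 scale was -0.60, while 0 were called at 3 weeks (2 at an unadjusted p under 0.05, both lower, background 8.63%). The nuclear encoded mitochondrial ribosomal proteins had medians of 0.04 and 0.11 in the same comparisons.

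Gene by gene, the 3-week comparison showed a small, broad difference in the cytosolic class in which no single gene passed the adjusted threshold. Of 84 cytosolic genes tested, 71 had a higher fitted level in IDPN-3wk than in control (84.5%, against 49.9% of all 15517 genes tested), and their median log2 fold change was 0.17, against 0.00 for all genes. edgeR called 0 of the 84 (background 1.88% of genes in either direction, 0.548% higher and 1.33% lower). At an unadjusted p under 0.05, 24 were higher and 0 lower, where the background was 7.12% and 8.63%. DESeq2, the tool of the study, called 9, all higher (background 2.82% higher and 4.06% lower). The exposed and control values did not overlap in 30 genes, higher in each (background 8.78%), and in 0 lower (background 10.9%). The median was 0.14 over the 51 large subunit genes tested and 0.26 over the 33 small subunit genes. Among the 6 libraries with more genes detected, which hold 1 IDPN-3wk rat, the class median was 0.09 and 60 of 84 genes were higher.

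The cytosolic genes with the smallest p at 3 weeks were 3 small subunit proteins. Rpsa, also known as the laminin receptor, stood at 247, 238 and 258 CPM in controls and 335, 347 and 287 CPM in IDPN-3wk rats. Its log2 fold change was 0.38 ± 0.0933 (SE), with an adjusted p of 0.0759 by edgeR. All 3 exposed values exceeded all 3 controls, and in IDPN-7wk the level was 285, 254 and 271 CPM, overlapping with controls.

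Rps3, at the mRNA entry of the small subunit and also known as a DNA repair endonuclease, measured 293, 281 and 273 CPM in controls and 358, 378 and 331 CPM in IDPN-3wk (0.33 on the log2 scale, adjusted p = 0.0851 by edgeR). Rps15 measured 98.5, 92.4 and 94.3 CPM in controls, 132, 126 and 110 CPM in IDPN-3wk and 112, 111 and 117 CPM in IDPN-7wk. Its log2 fold changes were 0.37 at 3 weeks (adjusted p = 0.0914 by edgeR) and 0.25 at 7 weeks (adjusted p = 0.176 by edgeR). Both exposed groups lay above all controls for Rps15.

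Rplp0, the central protein of the stalk that recruits elongation factors and a common reference gene in quantitative PCR, was steady among controls at 954, 958 and 939 CPM. It reached 1218, 1297 and 1100 CPM in IDPN-3wk and 1234, 1054 and 1055 CPM in IDPN-7wk. All exposed libraries were above all controls, with log2 fold changes of 0.34 and 0.23, which did not pass the test (adjusted p = 0.0961 and adjusted p = 0.197 by edgeR). Rpl6 and Rpl15, both of the large subunit, likewise lay above every control in both exposed groups, with log2 fold changes of 0.29 and 0.29 at 3 weeks and 0.22 and 0.27 at 7 weeks.

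The cytosolic genes with negative values at 3 weeks were few and their groups overlapped. Rps25, known for its part in initiation at internal ribosome entry sites, had the smallest p (-0.35 ± 0.199 on the log2 scale, adjusted p = 0.437 by edgeR). Rpl27 and Rps27 followed at -0.08 each.

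In the mitochondrial class 50 of 76 genes had a higher fitted level at 3 weeks (65.8%, against 49.9% of all genes). The median log2 fold change was 0.11, and edgeR called 0 (background 1.88%). At an unadjusted p under 0.05, 8 were higher and 1 lower (background 7.12% and 8.63%), and DESeq2 called 2, both higher (background 2.82%). Values did not overlap with controls in 12 genes that were higher and 2 that were lower (background 8.78% and 10.9%). The median differed between library sets, at 0.16 among the 6 libraries with more genes detected, and was 0.06 without IDPN-3wk replicate 1 and 0.07 without IDPN-3wk replicate 3.

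Mrpl44, an RNase III like protein of the large subunit, had the smallest p of the class. Its level was 35.5, 34.8 and 38.0 CPM in controls, 52.8, 54.3 and 41.7 CPM in IDPN-3wk and 45.1, 42.1 and 43.1 CPM in IDPN-7wk. The log2 fold changes were 0.46 ± 0.133 (adjusted p = 0.124 by edgeR) and 0.27 ± 0.133 (adjusted p = 0.312 by edgeR). Both exposed groups lay above every control, with the 2 highest values in libraries with fewer genes detected.

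Mrps18b, 1 of 3 Mrps18 paralogs (Mrps18a is placed in the large subunit in spite of its name), measured 51.1, 44.9 and 49.1 CPM in controls, 53.7, 75.3 and 67.5 CPM in IDPN-3wk and 59.3, 58.3 and 60.5 CPM in IDPN-7wk. Again both exposed groups lay above the controls (0.44 and 0.30 on the log2 scale). The other variants did not share this pattern. Mrps18a was at 46.3 to 49.7 CPM in controls, 46.7 to 61.4 in IDPN-3wk and 41.5 to 44.1 in IDPN-7wk, and Mrps18c at 7.79 to 13.5, 11.7 to 14.9 and 11.5 to 12.6 CPM. Mrpl45, which ties the ribosome to the inner membrane, showed 0.48 on the log2 scale at 3 weeks (adjusted p = 0.197 by edgeR), with libraries at 40.4, 60.1 and 41.1 CPM, against 32.8 to 34.8 in controls. On the negative side were Mrps6, Mrpl55 (-0.45) and Mrpl4 (-0.27), none past the adjusted test.

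**Figure D2:**
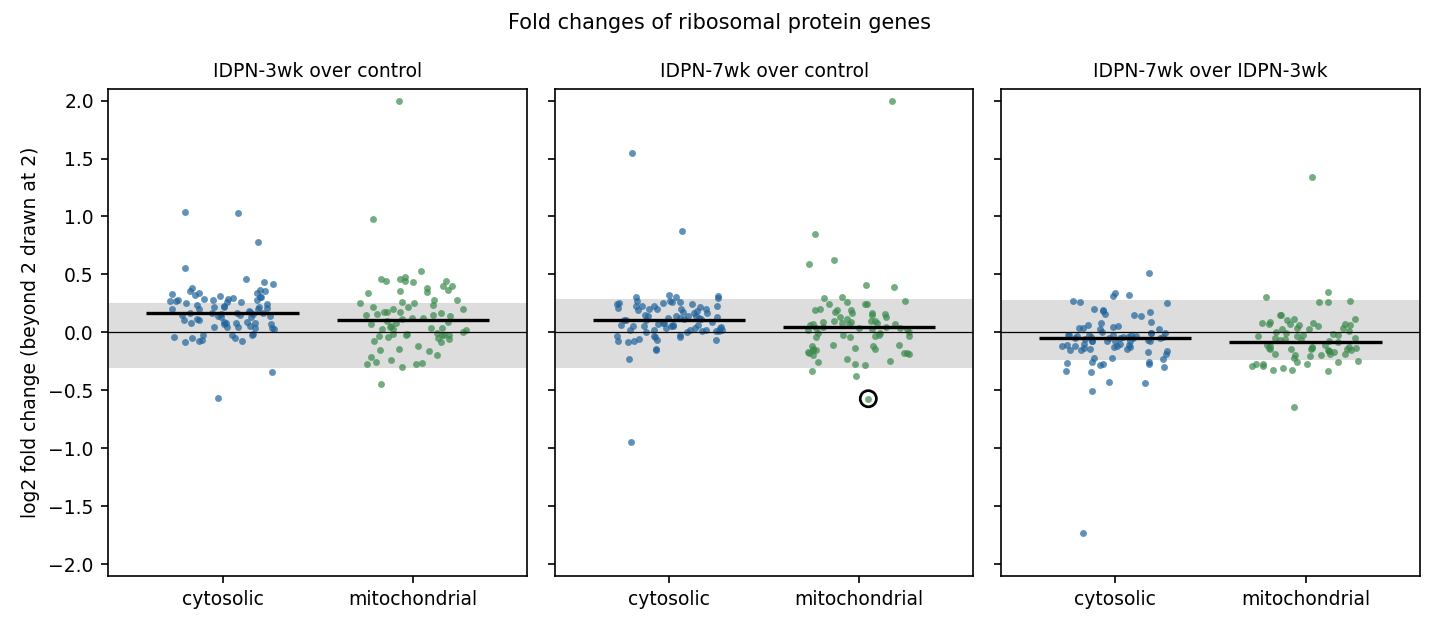
Each point is 1 ribosomal protein gene, with its fitted log2 fold change on the y axis for the 3 comparisons and its class on the x axis. Black bars are class medians and the grey band holds the middle 50% of all genes tested. The medians are 0.17 and 0.11 at 3 weeks, 0.11 and 0.04 at 7 weeks and -0.05 and -0.08 between the exposed groups, and the circled point is Mrps6, the gene called at an adjusted p under 0.05. The point drawn at the upper edge in the panels against control is Mrpl53, whose counts are close to 0.

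At 7 weeks 1 ribosomal protein gene passed the test, in the downward direction. Mrps6, a small subunit protein with a relative in the bacterial ribosome, was at 87.7, 75.0 and 85.4 CPM in controls, 63.7, 75.2 and 62.9 CPM in IDPN-3wk and 52.9, 53.1 and 60.8 CPM in IDPN-7wk. All 7-week values were below all values of the other groups. The log2 fold change was -0.57 ± 0.121 (SE), with an adjusted p of 0.0201 by edgeR, a fold change below 1.5 (5.13% of all genes passed with a fold change above 1.5). Over 17 alternatives the log2 fold change stayed between -0.64 and -0.53 and the adjusted p ran from 0.000358 to 0.0886. The call was lost without control replicate 1, control replicate 3, IDPN-7wk replicate 1 or IDPN-7wk replicate 2, with an adjusted p of 0.0588 to 0.0886 by edgeR. Over all genes 3.61% were called lower, so 1 call among 76 genes is no result about the mitochondrial class.

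The cytosolic class at 7 weeks, compared with the same controls, was again mostly above them, by a smaller amount. Of 84 genes, 68 were higher (81.0%, against 51.1% of all genes), and their median on the log2 scale was 0.11. edgeR called 0 (background 6.09%, with 2.48% higher), 8 were higher and 0 lower at an unadjusted p under 0.05 (background 8.55% and 10.7%), and DESeq2 called 3, all higher (background 4.77% higher and 6.57% lower). Values did not overlap in 22 genes that were higher and 3 that were lower (background 17.2% and 17.1%). The median rested in part on 1 animal, being 0.05 without IDPN-7wk replicate 1. By library, the median deviation of the cytosolic genes from control was 0.21 in that library and 0.04 and 0.05 on the log2 scale in replicates 2 and 3, against -0.03 to 0.03 in controls.

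Rpl15, which had the second smallest p among cytosolic genes, stood at 193, 208 and 215 CPM in controls and 264, 235 and 244 CPM in IDPN-7wk (0.27 ± 0.0830 on the log2 scale, adjusted p = 0.0958 by edgeR). The smallest p belonged to Rps19, the first gene linked to Diamond-Blackfan anaemia. It was counted at only 1.24, 1.38 and 1.32 CPM in controls (44 to 47 counts), 3.11, 1.95 and 3.01 CPM in IDPN-3wk and 4.66, 3.23 and 3.65 CPM in IDPN-7wk. Its log2 fold change at 7 weeks was 1.55 ± 0.446 (adjusted p = 0.0759 by edgeR), and no exposed value overlapped with controls. A level this low for an obligate ribosomal protein bears on the counting: copies of a gene elsewhere in the genome can take its reads, so the Rps19 value is uncertain.

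Among cytosolic genes below control at 7 weeks were Rps2 (described with the library set that it follows) and 1 of the Rpl21 entries at 197 to 221 CPM against 229 to 236 CPM in controls (-0.15 on the log2 scale). Neither passed the adjusted test.

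The mitochondrial class at 7 weeks had fewer genes past an unadjusted p under 0.05 than the background in each direction. The level was higher in 45 of 76 genes (59.2%, against 51.1% of all genes), and the median log2 fold change was 0.04. At an unadjusted p under 0.05, 2 genes were higher and 2 lower (background 8.55% and 10.7%), and values did not overlap in 14 genes that were higher and 15 that were lower (background 17.2% and 17.1%). The median was 0.0066 without control replicate 2, when 39 of 77 genes were higher, and 0.019 without IDPN-7wk replicate 1. Mrps31 was at 20.6, 20.7 and 20.2 CPM in controls and 29.2, 27.2 and 25.4 CPM in IDPN-7wk (0.41 on the log2 scale, adjusted p = 0.188 by edgeR). Mrpl48 was at 55.9, 51.2 and 44.0 CPM in controls and 33.6, 41.4 and 41.7 CPM in IDPN-7wk (-0.37, adjusted p = 0.218 by edgeR), and among the 6 libraries with more genes detected it passed the test at -0.47. Mrpl32, whose processing by the m-AAA protease is a step in assembling the ribosome, had 0.39, and Mrps28 had -0.34 on the log2 scale, neither past the adjusted test. Mrpl53 had 0 to 0.0798 CPM in controls and 0.204 to 0.535 CPM in IDPN-7wk, close to the 0.0611 to 0.101 CPM that 3 counts give per library, and no fold is given.

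**Figure D3:**
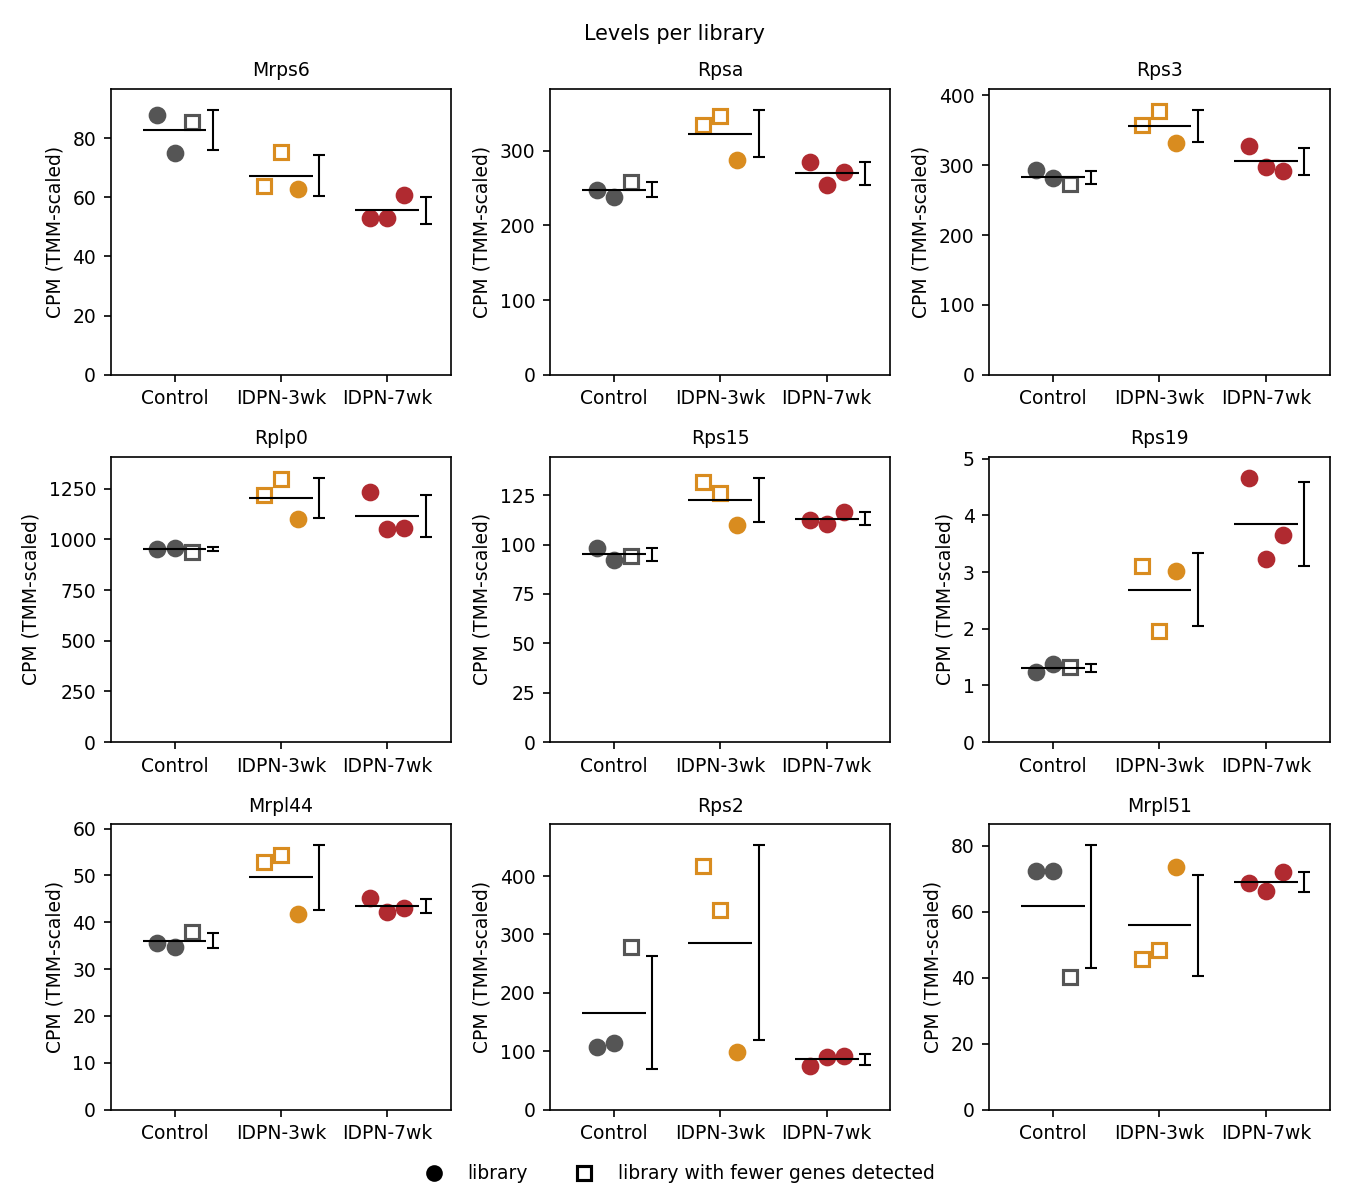
Levels in CPM (y axes, TMM-scaled, from 0) of 9 ribosomal protein genes in each library, by group on the x axis, with the mean as a line and the SD as a bar beside it. Open squares are the libraries with fewer genes detected. Mrps6 is lowest in IDPN-7wk (52.9 to 60.8 CPM), Rplp0 and Rps15 are above control in all exposed libraries, and Rps2 and Mrpl51 separate by the open squares and not by group.

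Between the exposed groups 23 of 84 cytosolic and 26 of 76 mitochondrial genes were higher at 7 than at 3 weeks (background 51.1%), and the medians were -0.05 and -0.08 on the log2 scale. The cytosolic median rested on single animals, at -0.0070 with 40 of 84 higher without IDPN-3wk replicate 1, -0.022 with 35 higher without IDPN-7wk replicate 2, -0.08 with 21 higher without IDPN-3wk replicate 3, and -0.11 with 17 higher without IDPN-7wk replicate 1. It was -0.00056 with 42 of 84 higher among the 6 libraries with more genes detected. The mitochondrial median ran from -0.12 to -0.04 when single libraries were left out, the ends being without IDPN-3wk replicate 2 and without IDPN-3wk replicate 3. It was -0.05 without IDPN-3wk replicate 1 and -0.11 among the 6 libraries. edgeR called 0 in either class (background 0.503%), and at an unadjusted p under 0.05, 9 cytosolic and 4 mitochondrial genes were lower and 0 higher (background 7.46% lower and 6.33% higher). DESeq2 called 1 cytosolic gene, Rps2, lower (background 2.46% lower and 2.01% higher). Values did not overlap in 9 cytosolic genes that were lower (background 8.92%) and 3 that were higher (background 12.1%), and in 7 and 1 mitochondrial genes. The smallest p in the mitochondrial class was that of Mrps7, at 61.6, 83.3 and 73.9 CPM in IDPN-3wk and 58.0, 59.6 and 57.1 CPM in IDPN-7wk (-0.33, adjusted p = 0.289 by edgeR). Upwards, Rpl27 (0.33) and Mrps27 (0.35) had the smallest p of their classes.

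The cytosolic gene that differed most between the exposed groups followed the library set. Rps2 was at 107, 114 and 278 CPM in controls, 417, 343 and 98.0 CPM in IDPN-3wk and 74.9, 90.5 and 92.5 CPM in IDPN-7wk. Its 3 high values were the 3 libraries with fewer genes detected (278 to 417 CPM, against 74.9 to 114 CPM in the other 6), so its log2 fold change of -1.73 between the exposed groups (adjusted p = 0.183 by edgeR) and -0.95 against control divide along that set. Rpl4 (809 to 1019 against 675 to 807 CPM), 1 of the Rps4x entries (65.2 to 75.1 against 46.2 to 58.5 CPM) and the scarce Mrpl36 were also higher in all 3 of these libraries. Rpl27 (79.3 to 105 against 112 to 132 CPM) and Mrpl51 (40.2 to 48.5 against 66.3 to 73.5 CPM) were lower in all 3. For the other members tested the sets overlapped. How many of all genes separate along this set was not counted, so these 6 members are no result about either class.

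**Figure D4:**
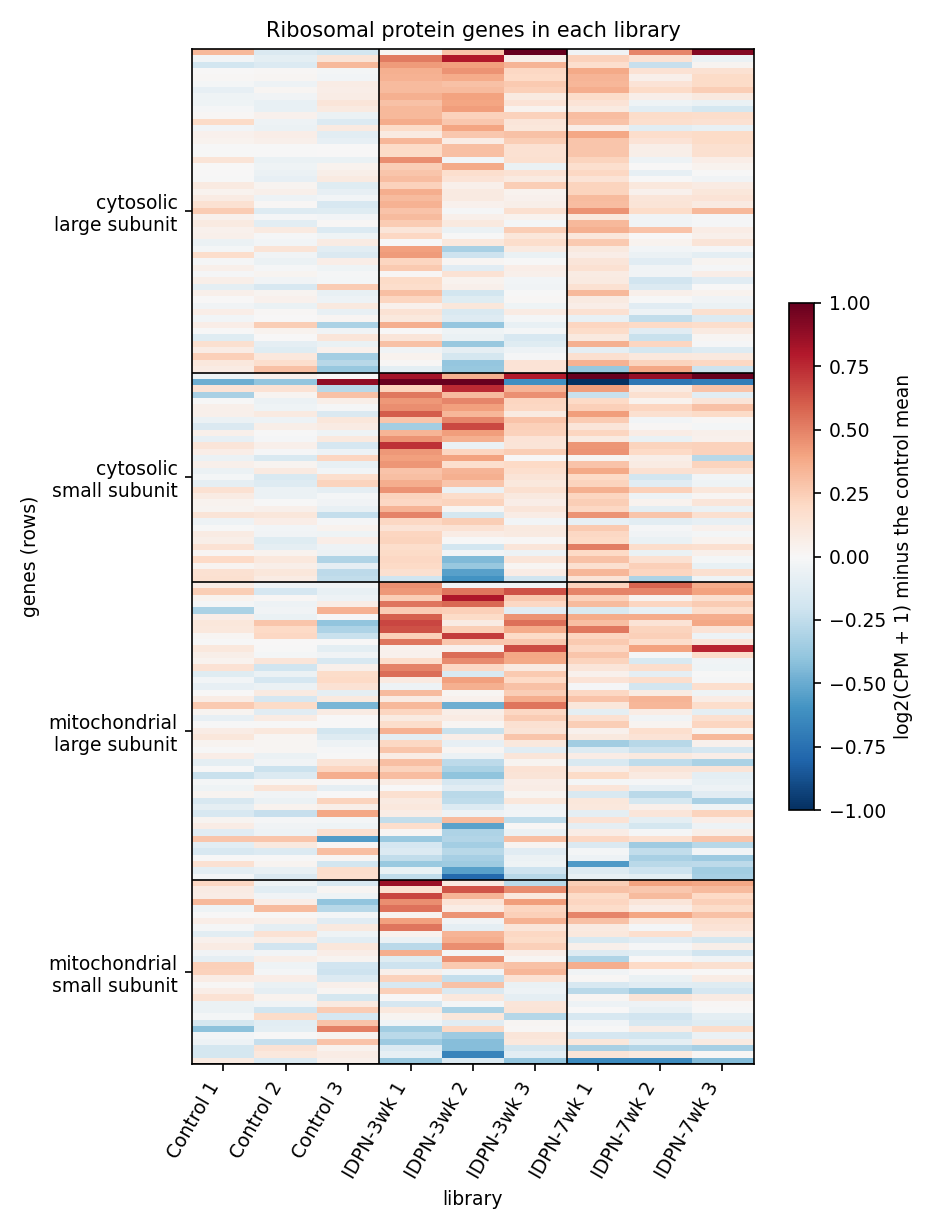
Each row is 1 of the 160 ribosomal protein genes tested and each column 1 library. Colour gives log2(CPM + 1) minus the mean of the controls, limited to 1 either way, and rows are ordered within each subunit by the 3-week fold change. The cytosolic blocks are mostly red in the IDPN-3wk columns and in IDPN-7wk replicate 1 (class median 0.10 to 0.28), and the mitochondrial blocks are mixed.

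The start sequence divided the cytosolic class without a wide difference in fold change, which was not tested. Among tested cytosolic entries whose symbol has a promoter sequence, with entries that share a symbol each counted, the 20 with a C and at least 4 pyrimidines at the start had a median log2 fold change of 0.15 at 3 weeks and 0.06 at 7 weeks. The 44 entries with another start had 0.17 and 0.13. The members printed above, Rps15, Rplp0, Rpl19 and Rpl14, belong to the first group, with 3-week values of 0.37, 0.34, 0.29 and 0.28. They were chosen for a small p at 3 weeks, so these values do not describe the group.

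Several members are variants of another ribosomal protein, and their balance can be read within a library. Rpl22l1, which can take the place of Rpl22, was counted at 1.49 ± 0.229 times Rpl22 in controls, 1.44 ± 0.125 in IDPN-3wk and 1.40 ± 0.175 in IDPN-7wk (SD, n = 3). Rps27l over Rps27 was 0.366, 0.403 and 0.377, and Rps4y2 over the summed Rps4x entries 0.0418, 0.0480 and 0.0401, within the spread of animals. Rpl7l1 over Rpl7 was 0.0341 ± 0.00407, 0.0339 ± 0.00427 and 0.0418 ± 0.000970, with each 7-week value above every value of the other groups. Rpl36al over Rpl36a was 7.00 ± 0.208, 8.54 ± 0.788 and 6.45 ± 0.878, with each 3-week value above every other value. Groups overlapped for Rps10l1 over Rps10 (means of 2.89, 2.99 and 2.41) and Rps18l1 over Rps18 (66.8, 74.3 and 74.7). They also overlapped for Rpl10l over Rpl10 (0.00129, 0.00265 and 0.00259). How often such ratios separate groups over all genes was not counted, so the Rpl7l1 and Rpl36al ratios are no result about the variants. The testis variants Rpl10l and Rpl39l were at 0.676 to 3.47 and 0 to 0.700 CPM, and Rpl3l, the striated muscle form of Rpl3, was below the minimum with 7 counts. These counts are not divided by length, so a ratio compares groups and not the amounts of both transcripts.

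Factors that work with the cytosolic ribosome had values of similar size. Of 21 translation factors, 18 were higher at 3 weeks (median log2 fold change 0.15, 0 called) and 17 at 7 weeks (median 0.10, 1 called). Over all genes 49.9% and 51.1% were higher, and 1.88% and 6.09% were called. So 1 edgeR call among 21 genes is no result about the factors. At an unadjusted p under 0.05, 6 were higher and 1 lower at 3 weeks (background 7.12% and 8.63%). At 7 weeks 4 were higher and 1 lower (background 8.55% and 10.7%). DESeq2 called 3 at each time, all higher (background 2.82% and 4.77% higher). Values did not overlap in 8 that were higher and 1 lower at 3 weeks (background 8.78% and 10.9%). At 7 weeks these were 5 and 1 (background 17.2% and 17.1%). The gene called by edgeR was Eif4a1, the RNA helicase that unwinds leaders during initiation. Its mean levels were 189.9, 256 and 296 CPM in control, IDPN-3wk and IDPN-7wk rats (0.64 on the log2 scale at 7 weeks, adjusted p = 0.0288 by edgeR). The 25 ribosome biogenesis genes process rRNA and assemble subunits in the nucleolus. Of them 19 were higher at 3 weeks and 22 at 7 weeks (background 49.9% and 51.1%). Their medians were 0.23 and 0.16, and 0 were called in either. At an unadjusted p under 0.05, 4 and 3 were higher and 0 lower (background 7.12% and 8.55% higher). Ncl, the nucleolar protein nucleolin, had 0.29 and 0.20, and Rack1, a ribosomal protein under another name, had 0.35 and 0.23.

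On the mitochondrial side, 9 of 14 translation factors were higher at each time (medians 0.08 and 0.13). So were 15 and 16 of 22 assembly genes (medians 0.12 and 0.15), and edgeR called 0 of either. Over all genes 49.9% and 51.1% were higher, and 1.88% and 6.09% were called. At an unadjusted p under 0.05 there were 0 of the factors at either time, and 0 and 2 of the assembly genes. The background was 7.12% higher and 8.63% lower at 3 weeks, and 8.55% and 10.7% at 7 weeks. So 2 among 22 genes is no result about the assembly genes. Those 2 were Grsf1, an RNA binding protein of mitochondrial RNA granules (-1.01 on the log2 scale), and the pseudouridine synthase Rpusd4 (0.60). Of 5 mitochondrial ribosomal proteins under other names, Ptcd3 (Mrps39) had 0.34 and 0.48 and the death associated protein Dap3 (Mrps29) 0.07 and 0.25 on the log2 scale, none past the adjusted test.

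Markers of other cells differed between the same libraries. Macrophage markers summed to 71.9 to 127 CPM in controls, 54.2 to 144 in IDPN-3wk and 223 to 287 in IDPN-7wk. At 7 weeks 9 of 9 were higher (background 51.1%) and C1qb was called (background 2.48% called higher). Schwann cell and myelin markers summed to 10128 to 12699, 8162 to 10892 and 3637 to 7350 CPM. At 7 weeks 8 of 8 were lower (background 51.1% higher) and Pmp22 and Mbp were called (background 3.61% called lower). Of 15 hair cell markers 4 were downregulated at 3 and 10 at 7 weeks, and of 10 supporting cell markers 1 and 5 (background 1.33% and 3.61% lower). Erythrocyte markers were at 225 to 274, 318 to 402 and 202 to 297 CPM, with the IDPN-3wk sums above those of all other libraries. At 3 weeks 4 of 4 were higher (background 49.9%), 3 at an unadjusted p under 0.05 (background 7.12%), and 0 were called. Endothelial markers were at 258 to 275, 260 to 296 and 224 to 323 CPM. At 7 weeks 3 of 5 were higher, and Cdh5 (0.67 on the log2 scale) and Flt1 (-0.66) were called (background 2.48% higher and 3.61% lower). IDPN-7wk replicate 1, with the highest cytosolic share, also had the lowest Schwann (3637 CPM) and supporting cell sums (7362 CPM) and the highest macrophage sum (287 CPM). The part of these shifts in the ribosomal protein values was not tested.

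Some members could not be measured as genes. The entries of Rps6, Rpl38, Rpl39, Rpl35al1, Rps15al4, Mrps21l and 1 of Rpl21 were listed at 0 in all libraries, and Rps29, Rpl30l1, Rpl3l and Rplp0l1 had 1 to 7 counts in all. A further pair, Mrpl33 and another Rpl21 entry, passed the minimum but were too low to be tested. The cytosolic class holds 11 members that share a symbol with another, with the 2 Rpl7a entries equal in every library. Rps18 had 764 counts beside 52904 for its like gene Rps18l1. Ribosomal protein genes have many processed copies in mammalian genomes, and reads shared between copies can be divided between entries, so single cytosolic entries are less certain than the class sum. The rule also took Rps19bp1, a SIRT1 regulator, and Mrps36, now counted to the ketoglutarate dehydrogenase complex.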

How the data were processed

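Total RNA of vestibular epithelia was amplified by the authors with a SMARTseq2 protocol from 6 cristae and 2 utricles per rat. Reads were mapped to Rnor6.0, per the study's methods. The submitters' processing notes name STAR 2.5.3a and RSEM 1.3.0, while the methods give another RSEM version. Strand is not given in the sources used here. The authors deposited estimated counts per gene as whole numbers, not normalized and without gene lengths, so levels of different genes were not compared.

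All 9 libraries were fitted together in R 4.3.3 with edgeR 4.0.16 (filterByExpr, TMM, robust quasi-likelihood test, 15517 genes tested, Benjamini-Hochberg over all of them in each of 3 comparisons). The study used DESeq2, run here (1.42.0) as an alternative. A gene was called at an adjusted p under 0.05. CPM are counts per 1000000 of the TMM-scaled library size. Class sums and medians have no test. The code was tested on simulated data. With 3 against 3 rats an exact permutation test cannot go below p = 0.1 and was not used. Libraries of a group differed by at least 19.2 times the counting variance per gene, so none was a duplicate. Reads carry no molecular identifiers, so the floor of 3 counts covers counting error only. Replicate numbers were given here in accession order.

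Named genes are members called in any comparison, the 3 with the smallest p per class, comparison and direction, variants of other ribosomal proteins, and called genes of other lists, and some genes that this rule takes are not reported here. Genes that separate the library set, that only another setting called, or that serve as examples from other lists were named after their values were seen. Members, lists and tests were chosen with earlier results of these data known. Alternatives were RLE scaling, scaling without these genes, other filters, only the groups compared, the library set as a factor and leaving out each library. After seeing the data, the 6 libraries with more genes detected alone and TMM-scaled class sums were added. The list symbols Eif3e, Eif3h, Mdn1, Ocm, Hba1, Hba-a1, Hbb-b1, Pecam1 and Rpl26l1 had no match and were not used here. Promoter sequences were matched by symbol, the first entry for each.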

Additional observations from a re-analysis of the deposited data

How the results depend on the processing

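Over the planned and added alternatives no class median and no fold change of Mrps6 changed sign. With DESeq2 the calls were 9 cytosolic (among them Rpsa, Rps3, Rps15, Rplp0, Rpl5, Rpl6 and Rpl15) and 2 mitochondrial (Mrpl44 and Mrps18b) at 3 weeks, 3 cytosolic at 7 weeks (among them Rps19 and Rpl15) and 1 cytosolic between the exposed groups (Rps2), against 0 by edgeR in each. Rps19 was the 1 cytosolic call of the 7-week comparison when each library had to reach 10 counts, with only the libraries of the 2 groups compared, and among the 6 libraries with more genes detected. Those 6 gave 2 mitochondrial calls at 7 weeks (Mrps6 and Mrpl48), a mitochondrial median of 0.16 at 3 weeks, a cytosolic share of IDPN-3wk over control of 1.10 and a mitochondrial to cytosolic ratio of 1.01. The 3-week values of those 6 rest on 1 IDPN-3wk library. Within the libraries with fewer genes detected, the mitochondrial to cytosolic ratio of IDPN-3wk over control was 0.877. Requiring a fold change above 1.5 left 0 mitochondrial calls at 7 weeks. On the TMM scale, which changes only the denominator, the 7-week over control ratio was 1.06 for the cytosolic and 1.00 for the mitochondrial class, and IDPN-7wk over IDPN-3wk was 0.946 for the mitochondrial class.

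Leaving out each library in turn gave 0 to 2 cytosolic and 0 to 1 mitochondrial calls at 3 weeks, 0 to 1 of each at 7 weeks, and 0 to 1 cytosolic calls between the exposed groups. Without IDPN-3wk replicate 3, Rpsa, Rps15 and Mrpl44 were called at 3 weeks and Rps2 between the exposed groups, and without IDPN-3wk replicate 2, Rps19 at 7 weeks. The mitochondrial median at 3 weeks ran from 0.056 to 0.139. The cause of these shifts was not tested. No paired analysis was possible because the replicate numbers were assigned here and carry no link between groups. Members with a few counts (Mrpl53, Rpl39l, Mrpl33) cannot be compared at this depth.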
